A study of Mus musculus with 24 samples.

Results

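Type 2 conventional dendritic cells (cDC2) that carry a Zeb2 transgene were set against cDC2 in which Zeb2 was deleted. The comparison takes 8 of the 24 libraries, chosen by their labels, with 4 libraries labelled cDC2 TG CRE+ and 4 labelled cDC2 KO CRE+. The other 4 cDC2 libraries, 2 labelled TG CRE- and 2 labelled KO CRE-, come from littermates without Cre and show how far the 2 mouse lines differ by themselves. The remaining 12 libraries hold cDC1 and entered only the estimate of the spread. The TG CRE+ cells came from CD11cCRExR26-Zeb2Tg/Tg mice and the KO CRE+ cells from CD11cCRExZeb2fl/fl mice. Their controls were R26-Zeb2Tg/Tg and Zeb2fl/fl mice without Cre. All were untreated C57Bl/6 animals of 6 to 12 weeks, and the cells were sorted from digested spleen. Both Cre-positive groups share the CD11c-driven Cre, so an effect of Cre alone would be present on both sides. That promoter is active in many dendritic cells and in some macrophages, so the alleles are not changed in cDC2 alone. RNA was sequenced, and the values are read counts per gene. They are given below as CPM, counts relative to library size, scaled by the trimmed mean of M-values (TMM).

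Zeb2 encodes a zinc-finger transcription repressor that binds E-box sequences in DNA, and its relative Zeb1 binds the same sequences. Id2 is a small protein that holds E proteins, the activators Tcf3, Tcf4 and Tcf12, away from DNA. In dendritic cells E proteins favour the plasmacytoid lineage and Id2 the cDC1 lineage, and the series title names repression of Id2 as the way Zeb2 acts on dendritic cell development. Splenic cDC2 take up blood-borne antigen and prime CD4 T cells. They carry Sirpa and Cd11b (the product of Itgam) and depend on the factor Irf4, while cDC1 carry Xcr1, Clec9a and Cd8a and depend on Irf8 and Batf3.

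The 8 libraries held 23355617 to 26162470 counts over genes, with reads on 13962 to 14260 genes each. Reads outside annotated genes made up 12.6 to 13.7% in TG CRE+ and 14.2 to 15.7% in KO CRE+ libraries, so the groups did not overlap in this measure, and its part in the results was not tested. On the first principal component of the 12 cDC2 libraries (30% of the variance), TG CRE+ libraries scored 25.5 to 32.8 and KO CRE+ from -49.3 to -35.7, with TG CRE- at 13.4 and 17.4 and KO CRE- at 9.64 and 6.37. The TG CRE+ libraries paired off. The chi-square value per gene was 10.1 between replicates 1 and 2 and 16.7 between replicates 3 and 4, against 32.3 to 40.7 in the other 4 pairings (18.8 to 42.7 in KO CRE+). The labels give no batch for this split and do not say that replicates are separate mice. The p-values therefore describe scatter among these libraries, which may be technical. The values with 1 of these pairs alone are given beside the main genes whose call they end.

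Both groups held cDC2 by their levels of Sirpa and Xcr1. Sirpa had 1410, 1443, 1301 and 1581 CPM in TG CRE+ and 1321, 1539, 1281 and 1442 CPM in KO CRE+ libraries, against means of 7.38 and 4.68 CPM in cDC1 of TG CRE- and KO CRE- mice. Xcr1 stood at 5.49 to 7.74 CPM in TG CRE+ and 4.26 to 6.02 CPM in KO CRE+ cDC2, where cDC1 without Cre averaged 1141 and 992 CPM. Neither marker passed between the Cre-positive groups, nor did Cd4, Esam, Clec4a4 or the cDC factor Zbtb46. The other cDC2 markers checked, Itgam, Irf4, Flt3, Itgax and H2-Ab1, were lower in TG CRE+ (log2 fold changes -1.06, -1.14, -0.62, -0.23 and -0.23). Of the cDC1 markers checked beside Xcr1, Clec9a, Cd8a and Irf8 were higher and Batf3 was lower. All of these are given below.

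Zeb2 had 151, 152, 148 and 159 CPM in TG CRE+ and 38.0, 41.4, 33.0 and 30.7 CPM in KO CRE+ libraries. The groups lay far apart, and the 4 transgene libraries were close together. The means were 153 ± 4.72 CPM in TG CRE+ and 35.8 ± 4.83 CPM in KO CRE+ (SD, n = 4 each), a log2 fold change of 2.09 (SE 0.24, adjusted p = 2.19e-06 by the quasi-likelihood test of edgeR, Benjamini-Hochberg adjusted). An exact two-sided permutation test gave p = 0.0286, the smallest value 4 against 4 libraries allow. The genotypes differ in Zeb2 by design, so these p-values describe the separation of the libraries and nothing further is read from them. Without Cre the order was the other way round, with 104 and 104 CPM in TG CRE- and 176 and 132 CPM in KO CRE- (log2 fold change -0.57, adjusted p = 0.628). Reads over the whole gene on chromosome 2 (44983512 to 45117442 in mm10) are counted, including exons that Cre leaves in place, and transgene and endogenous transcripts are not separated.

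Id2 followed the opposite order. It had 321, 260, 346 and 356 CPM in TG CRE+ and 494, 625, 526 and 562 CPM in KO CRE+ libraries, so every transgene library lay below every deletion library. The means were 321 ± 42.9 CPM in TG CRE+ and 552 ± 56.1 CPM in KO CRE+ (SD, n = 4 each; exact two-sided permutation test p = 0.0286), with a log2 fold change of -0.78 (SE 0.13, adjusted p = 0.000146). The TG CRE- libraries held 418.5 and 331 CPM and the KO CRE- libraries 188 and 315 CPM, a log2 fold change of 0.57 in the other direction (adjusted p = 0.329). The difference between the 2 contrasts, Cre-positive minus Cre-negative, was -1.36 for Id2 (adjusted p = 0.00064) and 2.67 for Zeb2 (adjusted p = 0.000347). Id2 stayed well under its level in cDC1 without Cre (1267 and 1445 CPM on average in TG and KO mice).

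**Figure D1:**
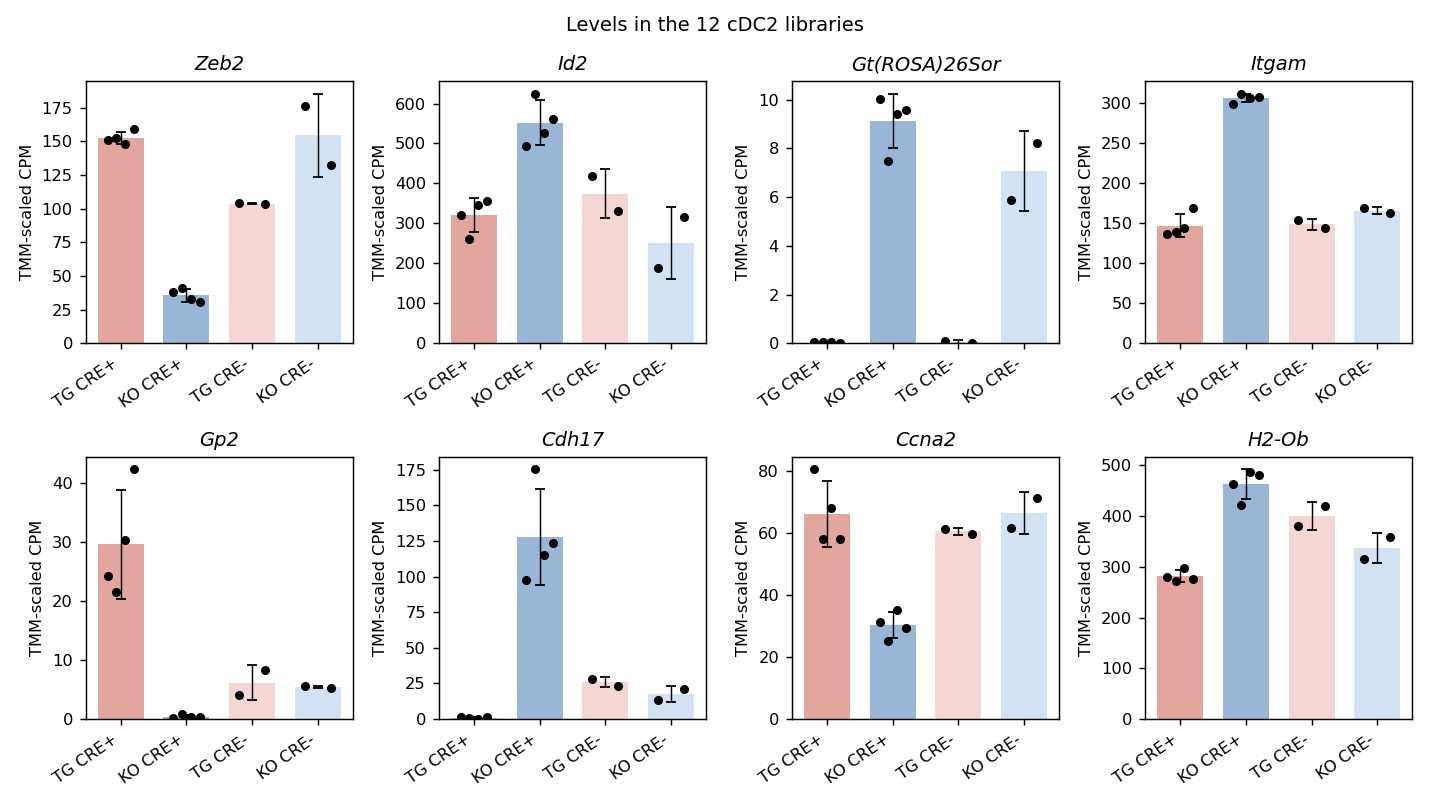
TMM-scaled CPM (vertical axis, starting at 0) of 8 genes in the 12 cDC2 libraries, as bars for the group mean with SD whiskers and 1 dot per library (n = 4 with Cre and n = 2 without). Zeb2 is lowest and Id2 highest in KO CRE+, while Gt(ROSA)26Sor separates the 2 lines with or without Cre.

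In total, 2085 of 13166 tested genes (15.8%) passed an adjusted p of 0.05 between the Cre-positive groups. Of these, 1080 (8.2%) were higher and 1005 (7.63%) lower in TG CRE+, and 242 (1.84%) and 353 (2.68%) of them were at least 2-fold apart. Irrespective of p, all 4 transgene libraries lay above all 4 deletion libraries for 1397 genes (10.6%) and below them for 1363 (10.4%). The median log2 fold change of all genes was -0.002. With transgene replicates 1 and 2 alone, 747 genes were higher and 687 lower, and with replicates 3 and 4 alone 507 and 488. Of the 2085 genes, 1271 passed again in the same direction with the first pair and 935 with the second.

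Few of these genes also differed between the lines without Cre. Between the same lines without Cre, 18 genes (0.137%) passed, 11 higher (0.0835%) and 7 lower (0.0532%) in TG CRE-, and 1203 (9.14%) had an unadjusted p under 0.05. DESeq2 called 38 higher and 32 lower. This fit has 2 against 2 libraries, so a gene that does not pass may still differ. A difference of at least 2-fold, whatever its p, was seen in 1063 genes (8.07%). Of the 2085 genes called with Cre, 15 (0.114% of all tested) are marked by the test without Cre and 146 (1.11%) by the 2-fold difference. Leaving out both kinds of marked gene leaves 1008 higher (7.66%) and 930 lower (7.06%). The difference between the 2 contrasts passed for 585 genes (4.44%), 298 in the higher and 287 in the lower direction (2.26 and 2.18%), of which 149 and 170 were at least 2-fold (1.13 and 1.29%). These counts rest on the few Cre-negative libraries, with 104 and 127 without KO CRE- replicate 1, 130 and 180 without TG CRE- replicate 1, and 140 and 158 without TG CRE- replicate 2. Against its own Cre-negative littermates, the transgene group differed in 43 genes (0.327%) and the deletion group in 686 (5.21%). These comparisons share the Cre-positive libraries, and they have 4 against 2 libraries each.

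The 10 genes that were highest in TG CRE+, among those with at least 5 CPM in a group and no overlap, include secreted enzymes and surface receptors. Genes called between the lines without Cre were left out here and are described below. Gp2, a GPI-anchored glycoprotein that binds bacteria on intestinal M cells, had 24.3, 21.6, 30.4 and 42.4 CPM in TG CRE+ and 0.194, 0.911, 0.271 and 0.348 CPM in KO CRE+ libraries. Without Cre it stood at 4.11 and 8.28 CPM in TG CRE- and 5.60 and 5.34 CPM in KO CRE-, between the Cre-positive groups. Its log2 fold change was 6.10 (SE 0.41, adjusted p = 5.97e-10), and 5.91 in the difference of contrasts (adjusted p = 3.66e-06). Set against its own littermates it rose by 2.26 with the transgene (adjusted p = 0.00413), and in deletion cDC2 it fell by 3.66 (adjusted p = 6.93e-05).

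Mmp9, a gelatinase that is abundant in neutrophils, had 141, 189, 332 and 317 CPM in TG CRE+ and 7.52, 17.4, 16.1 and 5.30 CPM in KO CRE+ libraries (log2 fold change 4.4, SE 0.39, adjusted p = 6.28e-08). Its levels without Cre, 153 and 129 CPM in TG CRE- and 76.0 and 86.9 CPM in KO CRE-, were nearer to the transgene group. The neutrophil genes S100a8 and S100a9 were at most 3.17 CPM in TG CRE+ and 2.82 CPM in KO CRE+ and did not pass. Adamdec1, a metalloprotease of mucosal macrophages and dendritic cells, was 12.9-fold higher, at 24.1 to 45.2 CPM in TG CRE+ and 0.911 to 3.40 CPM in KO CRE+, and Cre-negative cells held 6.35 to 21.7 CPM. Hr, a nuclear receptor corepressor, and 2610528A11Rik were 10.1-fold and 7.85-fold higher.

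A further set of these genes varied within the transgene group. Cd8a, the coreceptor that marks cDC1, had 46.7, 74.0, 38.4 and 9.10 CPM in TG CRE+ against 3.02, 2.30, 4.72 and 4.18 CPM in KO CRE+ libraries. Siglech, a receptor of plasmacytoid dendritic cells (pDC), had 14.6, 27.1, 12.9 and 2.68 CPM in TG CRE+ against 2.56, 2.02, 1.39 and 1.28 CPM in KO CRE+. Cd209d, a lectin of the DC-SIGN family, had 26.7, 46.0, 18.5 and 2.11 CPM in TG CRE+ against 0.737, 0.356, 0.928 and 0.852 CPM in KO CRE+. In all 3, and in the sterol hydroxylase Cyp7b1, replicate 2 was the highest and replicate 4 the lowest transgene library, and replicate 4 still lay above the deletion group. The lines differed for them without Cre as well, at least 2-fold but without passing (Cd8a 18.9 and 41.6 CPM in TG CRE-, 7.5 and 6.5 CPM in KO CRE-, adjusted p = 0.17). None of the 4 passed in the difference of contrasts.

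Elavl4, a neuronal RNA-binding protein, had the highest fold change of the 10 and rested on 1 of the pairs of transgene libraries. It had 0.264, 0.376, 13.2 and 16.9 CPM in TG CRE+ and at most 0.0792 CPM in KO CRE+ libraries, with 14.2 and 12.3 CPM in TG CRE- and 0.597 and 0 CPM in KO CRE-. On the log2 scale the change was 7.16 (adjusted p = 0.00649), but 2.60 with replicates 1 and 2 alone (adjusted p = 0.429) and 8.13 with replicates 3 and 4 alone (adjusted p = 0.00143). Over its 16 alternatives the adjusted p ran from 0.000106 to 0.429. It did not pass in the difference of contrasts (1.72, adjusted p = 0.815).

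The 10 genes that were lowest in TG CRE+ stood mostly near 0 there. Cdh17, a liver-intestine cadherin also found on B cells, had 1.28, 1.05, 0.332 and 1.21 CPM in TG CRE+ and 97.7, 175, 115 and 124 CPM in KO CRE+ libraries. Cre-negative cells were in between, at 28.4 and 23.5 CPM in TG CRE- and 13.5 and 21.3 CPM in KO CRE-. Its log2 fold change was -7.02 (SE 0.48, adjusted p = 7.21e-10), and against its littermates it fell by 4.72 with the transgene (adjusted p = 4.14e-06) and rose by 2.88 with the deletion (adjusted p = 0.000764). Serpinb2, a serine protease inhibitor, had 0.188 to 1.45 CPM in TG CRE+ and 14.8 to 23.7 CPM in KO CRE+. Its Cre-negative levels of 11.2 to 14.7 CPM were nearer to the deletion group.

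The testis-expressed gene 1700011B04Rik had 3 counts in all TG CRE+ libraries together and 1071 in KO CRE+, 361-fold fewer per library size (95% counting interval 123 to 1750), and Cre-negative cells were at 0.154 to 0.598 CPM. Lurap1, an adaptor of actomyosin and NF-kappaB signalling, had at most 0.188 CPM in TG CRE+ and 5.58 to 7.62 CPM in KO CRE+ (log2 fold change -6.05). Slc27a2, a fatty acid transporter, Upp1, a uridine phosphorylase, Prg2, the eosinophil major basic protein, and Ttc39a were 48.2-fold, 44.2-fold, 40.2-fold and 16.8-fold lower than in KO CRE+. Without Cre, the 4 libraries held 1.83 to 2.73 CPM of Slc27a2, 0.0747 to 0.411 CPM of Upp1, 0.597 to 2.64 CPM of Prg2 and 0.615 to 1.51 CPM of Ttc39a. Against their own littermates, Upp1, Prg2 and Ttc39a rose with the deletion by 4.87, 4.33 and 4.43 on the log2 scale (adjusted p = 0.00105, 0.000509 and 3.4e-07). With the transgene their changes of -1.20, -2.33 and -0.59 did not pass (adjusted p = 0.75, 0.127 and 0.786). Tnfrsf11b, the decoy receptor osteoprotegerin, had counts in 1 of 4 TG CRE+ libraries and 3.37 to 6.16 CPM in KO CRE+. DESeq2 did not call it (adjusted p = 0.178), while in the other alternatives its adjusted p went down to 2.38e-05.

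Ms4a1 encodes CD20, a B cell surface protein. It had 4.44, 5.64, 3.77 and 19.3 CPM in TG CRE+ and 164, 175, 193 and 212 CPM in KO CRE+ libraries, and 29.7 and 26.5 CPM in TG CRE- and 12.1 and 22.5 CPM in KO CRE-. On the log2 scale the change was -4.48 (SE 0.45, adjusted p = 3.15e-07), and -5.18 in the difference of contrasts (adjusted p = 0.000144). Cd79a, a chain of the B cell receptor, did not pass, with 0.527 to 18.8 CPM in TG CRE+ and 0.594 to 7.62 CPM in KO CRE+ and transgene replicate 4 the highest. Of the 10 lowest genes 5 had all 4 Cre-negative libraries between the Cre-positive groups, and of the 10 highest genes 3 did. The difference of contrasts passed for 9 of the 10 lowest and 5 of the 10 highest, beside 4.44% of all genes. Nothing is read from this count, since the choice of these genes used both contrasts.

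**Figure D2:**
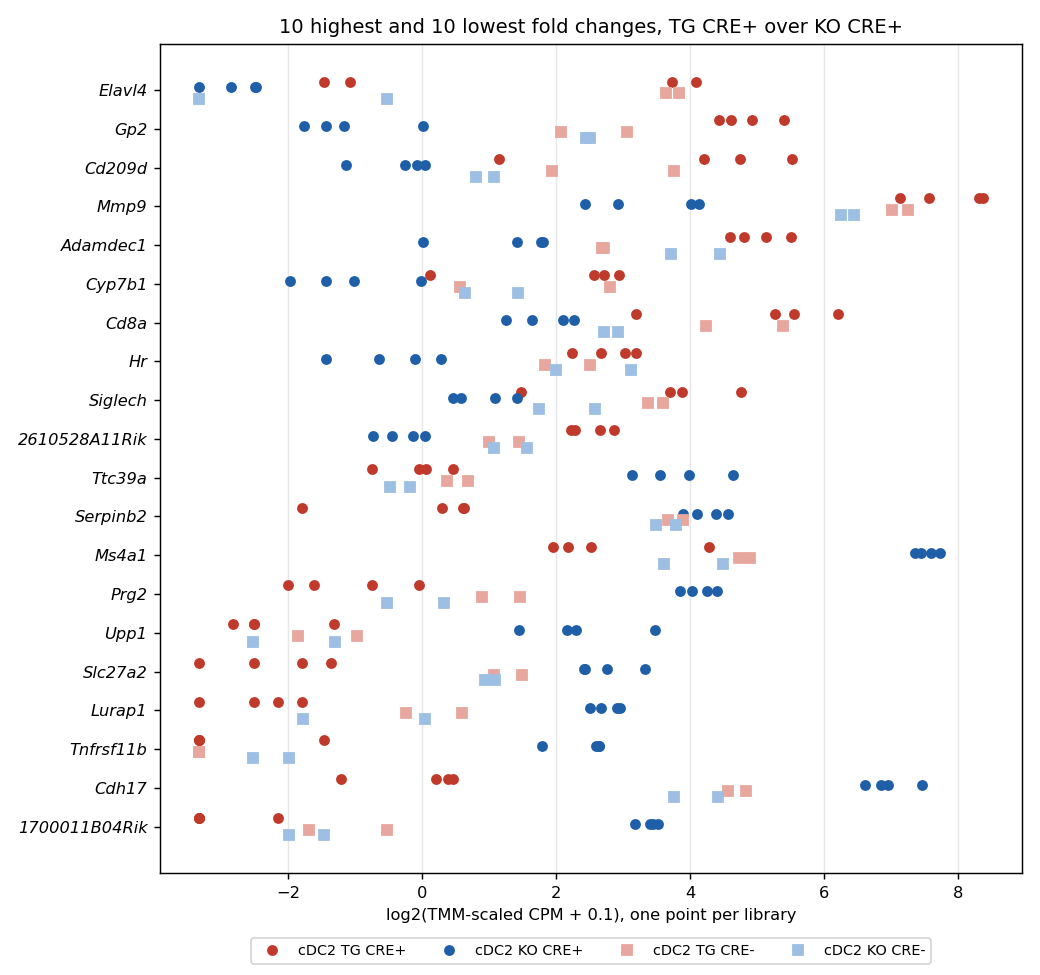
Log2(TMM-scaled CPM + 0.1) of the 10 genes with the highest and the 10 with the lowest fold change of TG CRE+ over KO CRE+, 1 point per library. Circles are libraries with Cre and squares those without. The Elavl4 row shows its TG CRE+ libraries split into a low and a high pair.

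Promoter sequences are shown for Id2, for the 2 highest and 2 lowest of these genes that have a RefSeq entry, and for Epcam and Crb3, which were added after their values were seen because their promoters hold several ZEB motifs. Each runs 5′ to 3′ on the gene's own strand from 250 bases before to 50 bases after the first RefSeq start listed, in GRCm38.p6, the assembly of mm10. Capitals mark CACCTG or CAGGTG, the E-box bound by ZEB proteins. Each word is the reverse complement of the other, so the pair covers both strands, and the matches printed do not overlap. The promoters are at chr12:25096043-25096342 (Id2, minus strand), chr4:110351862-110352161 (Elavl4, minus), chr7:119459223-119459522 (Gp2, minus), chr13:35181373-35181672 (1700011B04Rik, plus), chr4:116144567-116144866 (Lurap1, minus), chr17:87635729-87636028 (Epcam, plus) and chr17:57061951-57062250 (Crb3, plus).
Id2: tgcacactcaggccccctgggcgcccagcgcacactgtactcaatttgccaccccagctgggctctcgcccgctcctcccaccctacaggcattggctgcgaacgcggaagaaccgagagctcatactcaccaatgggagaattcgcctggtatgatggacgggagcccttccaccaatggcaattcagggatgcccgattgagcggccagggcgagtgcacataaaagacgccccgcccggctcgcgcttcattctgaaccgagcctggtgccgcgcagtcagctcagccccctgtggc
Elavl4: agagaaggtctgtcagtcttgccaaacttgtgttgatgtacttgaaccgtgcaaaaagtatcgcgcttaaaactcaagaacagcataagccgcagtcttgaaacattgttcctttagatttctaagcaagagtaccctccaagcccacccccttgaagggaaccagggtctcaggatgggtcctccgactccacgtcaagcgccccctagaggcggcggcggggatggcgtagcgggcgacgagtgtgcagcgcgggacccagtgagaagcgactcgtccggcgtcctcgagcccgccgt
Gp2: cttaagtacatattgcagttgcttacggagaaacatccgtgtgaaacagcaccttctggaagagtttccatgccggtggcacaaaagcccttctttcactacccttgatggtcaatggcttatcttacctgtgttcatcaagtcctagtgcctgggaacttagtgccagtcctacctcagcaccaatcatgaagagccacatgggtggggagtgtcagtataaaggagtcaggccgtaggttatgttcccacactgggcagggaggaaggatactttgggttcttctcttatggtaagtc
1700011B04Rik: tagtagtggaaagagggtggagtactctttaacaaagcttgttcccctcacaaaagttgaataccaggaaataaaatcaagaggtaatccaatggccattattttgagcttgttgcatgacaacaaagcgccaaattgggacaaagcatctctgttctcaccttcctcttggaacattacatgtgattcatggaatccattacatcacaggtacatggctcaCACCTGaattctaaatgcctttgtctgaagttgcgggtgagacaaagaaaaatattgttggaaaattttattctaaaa
Lurap1: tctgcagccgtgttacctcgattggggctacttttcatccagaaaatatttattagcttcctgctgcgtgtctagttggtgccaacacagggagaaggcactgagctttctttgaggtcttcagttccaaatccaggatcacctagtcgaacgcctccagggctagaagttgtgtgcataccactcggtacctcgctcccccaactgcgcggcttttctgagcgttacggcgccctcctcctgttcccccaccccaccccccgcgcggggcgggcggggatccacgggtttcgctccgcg
Epcam: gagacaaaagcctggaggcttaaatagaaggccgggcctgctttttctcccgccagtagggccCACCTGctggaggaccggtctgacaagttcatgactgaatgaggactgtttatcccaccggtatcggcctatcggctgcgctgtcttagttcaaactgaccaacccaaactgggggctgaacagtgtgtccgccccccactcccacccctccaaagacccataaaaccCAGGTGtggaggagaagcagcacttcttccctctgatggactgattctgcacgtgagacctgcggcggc
Crb3: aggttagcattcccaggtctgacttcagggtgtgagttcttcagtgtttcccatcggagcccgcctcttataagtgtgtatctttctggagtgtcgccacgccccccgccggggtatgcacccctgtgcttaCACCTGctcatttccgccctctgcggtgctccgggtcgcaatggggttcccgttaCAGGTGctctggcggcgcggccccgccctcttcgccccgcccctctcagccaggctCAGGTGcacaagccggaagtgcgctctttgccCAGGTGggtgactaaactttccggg
The windows of Id2, Elavl4, Gp2 and Lurap1 do not hold these letters, that of 1700011B04Rik holds 1 match, that of Epcam 2 and that of Crb3 4. Of the other epithelial genes called below, the window of Tjp3 holds 1 match and that of Cldn1, the one with the smallest p, holds none.

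Over all genes tested, 10057 of 13166 matched a RefSeq promoter, and 17.5% of these held CACCTG or CAGGTG (95% Wilson interval 16.7 to 18.2%, counting error only). The share was 24.9% (21.9 to 28.1%, 186 of 748 promoters) among genes lower in TG CRE+ and 13.1% (11 to 15.5%, 111 of 849) among genes higher there. Among genes at least 2-fold apart it was 29.8% (24.5 to 35.7%) of the lower and 17.0% (12.2 to 23.3%) of the higher ones. The median GC content of the windows was 61.0, 60.7, 58.5 and 57.8% in these 4 sets and 60.7% over all genes. With the wider E-box CANNTG the shares were 69.5% of the lower and 62.9% of the higher genes, against 63.6% of all. No test was made, and a match is not a binding site.

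Epithelial genes that ZEB factors are known to repress include junction and adhesion proteins. Of 12 tested members of an epithelial list, 4 were lower in TG CRE+, none was higher and 8 did not pass. The called share was 33.3%, beside 15.8% of all genes tested (7.63% lower). The list's median log2 fold change was -0.24, and 0.46 between the lines without Cre. Cldn1, a tight junction protein, had 3.46, 4.29, 3.32 and 2.23 CPM in TG CRE+ and 13.1, 23.2, 18.7 and 15.8 CPM in KO CRE+ libraries (log2 fold change -2.41, SE 0.27, adjusted p = 1.23e-06). Epcam, an adhesion molecule that Langerhans cells also carry, had 15.2, 15.3, 10.9 and 9.06 CPM in TG CRE+ and 50.2, 56.0, 38.1 and 48.6 CPM in KO CRE+ (-1.93, adjusted p = 2.87e-05). In both genes the groups were separate and the Cre-negative libraries were near the transgene group, with 11.3 to 20.1 CPM of Epcam. Tjp3 was 1.54-fold lower. The polarity gene Crb3 had no count in TG CRE+ and 38 in KO CRE+, so it was at least 3.2-fold lower against a floor of 3 counts per library. Cdh1 (E-cadherin) did not pass, with 1.25 to 2.49 CPM in TG CRE+ and 0.929 to 1.62 CPM in KO CRE+, and Cldn4, Dsp and Esrp1 had no count in any of the 8 libraries. Among 18 genes of TGF-beta signalling (5.56% called), Smad1 alone passed, at 1.19-fold higher, and 12 of its 18 alternatives ended that call.

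Lsr, the lipolysis-stimulated lipoprotein receptor of tricellular junctions, was not on that list and had the smallest p of all genes in the difference of contrasts. It had 7.57, 7.97, 8.5 and 8.76 CPM in TG CRE+, 70.7, 94.4, 87.9 and 81.0 CPM in KO CRE+, 25.4 and 20.4 CPM in TG CRE- and 19.9 and 21.6 CPM in KO CRE- libraries. The Cre-negative cells thus sat between the Cre-positive groups, and the 2 lines were alike without Cre. On the log2 scale the change was -3.35 (SE 0.13, adjusted p = 3.49e-14), and -3.49 in the difference of contrasts (adjusted p = 5.75e-10). Snx22, a sorting nexin, and Anxa6, a calcium-dependent membrane-binding protein, followed the same order. Snx22 had 0.904 to 1.66 CPM in TG CRE+, 10.2 to 15.1 CPM in KO CRE+ and 2.54 to 5.99 CPM without Cre. Anxa6 had 346, 375, 361 and 373 CPM in TG CRE+, 931, 955, 976 and 943 CPM in KO CRE+, 600.0 and 600.5 CPM in TG CRE- and 578 and 563 CPM in KO CRE-. Against their own littermates, Lsr, Snx22 and Anxa6 fell by 1.48, 1.97 and 0.72 on the log2 scale with the transgene and rose by 2.01, 2.22 and 0.74 with the deletion, all with an adjusted p of at most 4.14e-06. The promoter window of Lsr holds a ZEB motif and that of Snx22 does not.

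**Figure D3:**
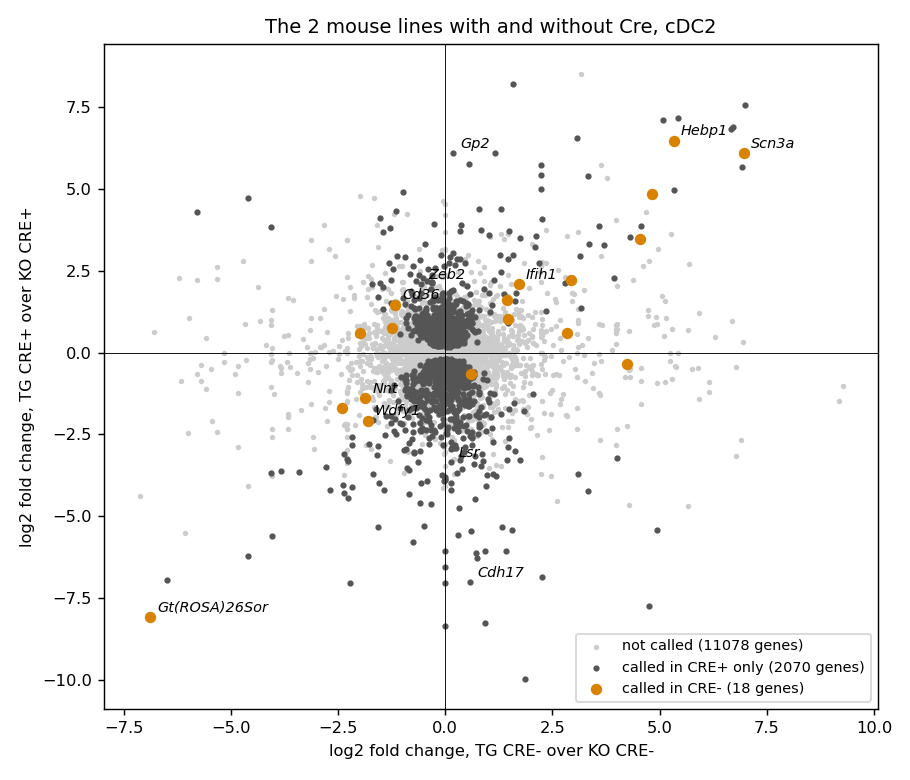
Log2 fold change of TG CRE+ over KO CRE+ (vertical) against that of TG CRE- over KO CRE- (horizontal), 1 dot per tested gene. Orange dots are the 18 genes called without Cre, dark dots the 2070 other genes called with Cre, and Lsr and Cdh17 lie low on the vertical axis at a horizontal value near 0.

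The 18 genes that differed between the lines without Cre include the transgene's own locus. Gt(ROSA)26Sor, the Rosa26 transcript on chromosome 6 (113067428 to 113077244), had 3 counts in TG CRE+ and 938 in KO CRE+ libraries, 316-fold fewer per library size (95% counting interval 108 to 1530). Without Cre it had 0.112 and 0 CPM in TG CRE- and 5.90 and 8.23 CPM in KO CRE-, so it was down in the transgene line with or without Cre. By the genotype, both alleles of this locus carry the insertion in the transgene line.

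Hebp1, a haem-binding protein, had 234, 218, 210 and 227 CPM in TG CRE+ against 1.24, 1.15, 3.60 and 3.99 CPM in KO CRE+ libraries, and 216 and 98.4 CPM in TG CRE- against 3.51 and 4.30 CPM in KO CRE-. The sodium channel gene Scn3a had 38.1 to 49.2 CPM in TG CRE+ and 0.271 to 1.28 CPM in KO CRE+, and 36.0 and 26.6 CPM in TG CRE- and 0.149 and 0.346 CPM in KO CRE-. Both are therefore line differences, and neither passed in the difference of contrasts (adjusted p = 0.269 and 0.535). Fastkd1, the viral RNA sensor Ifih1, Pdk1, BC064078 and Gcsam were likewise higher in the transgene line under both conditions. Nnt, a mitochondrial transhydrogenase known to be deleted in part in the C57BL/6J substrain, had 32.2 to 36.5 CPM in TG CRE+ and 85.7 to 90.3 CPM in KO CRE+, and 30.1 and 22.7 CPM in TG CRE- and 99.1 and 94.3 CPM in KO CRE-. Wdfy1 and Maml2 were also lower in the transgene line under both conditions, and a difference of substrain was not tested.

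Jchain, the joining chain of secreted antibody, was 28.9-fold higher but varied widely, at 31.4, 105, 11.6 and 15.5 CPM in TG CRE+ against 0.475 to 2.29 CPM in KO CRE+. It had 42.4 and 259 CPM in TG CRE- and 2.91 and 7.69 CPM in KO CRE-, and its mark was lost in 4 alternatives (adjusted p up to 0.575 without KO CRE- replicate 1). In all, 12 of the 15 marked genes called with Cre had the same direction in both conditions. Cd36, Ppm1m and Sh3pxd2b went in opposite directions. Cd36, a scavenger receptor of cDC1, had 11.8 to 16.4 CPM in TG CRE+ and 3.29 to 5.65 CPM in KO CRE+, but 7.77 and 6.73 CPM in TG CRE- and 17.5 and 15.2 CPM in KO CRE-.

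Of the 18 genes, 4 lie on chromosome 2 with Zeb2 and 5 on chromosome 6 with Rosa26. Within 20 Mb of Zeb2, 37 of 250 tested genes were called with Cre (14.8%), 1 without, and 5 in the difference of contrasts (2.0%). Within 20 Mb of Gt(ROSA)26Sor, 48 of 225 were called with Cre (21.3%), 3 without, and 18 in the difference of contrasts (8.0%). On all other chromosomes the shares were 15.6% with Cre, 0.0788% without and 4.46% in the difference. Scn3a and Hebp1 lie just outside these windows, 20.3 Mb from Zeb2 and 22.1 Mb from Rosa26. Sequence linked to a targeted locus and the effect of Zeb2 cannot be told apart for such genes from the Cre-positive groups alone.

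**Figure D4:**
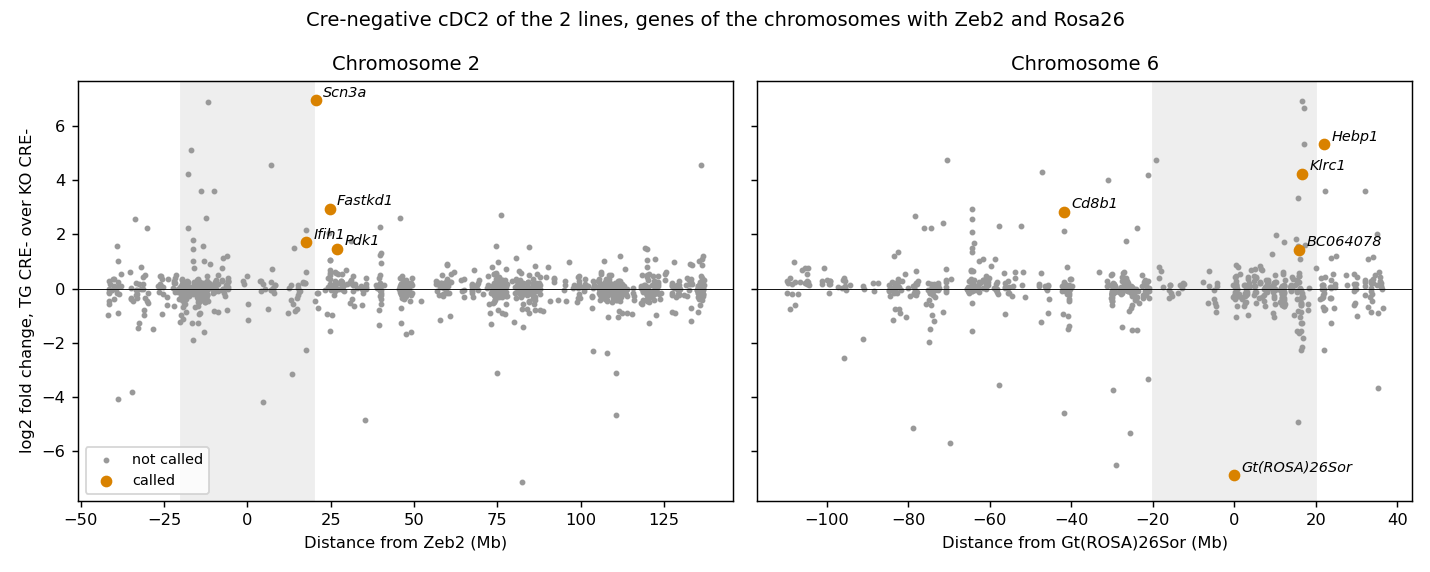
Log2 fold change of TG CRE- over KO CRE- for tested genes of chromosome 2 by distance from Zeb2 (left) and of chromosome 6 by distance from Gt(ROSA)26Sor (right), in Mb. Orange dots are genes called without Cre and the grey band marks 20 Mb on either side. Scn3a and Hebp1 stand at 20.3 and 22.1 Mb.

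Gene lists were then read for the direction of their called members, beside 8.2% higher and 7.63% lower over all genes tested. In bulk RNA, fewer cells of a type and less RNA per cell cannot be told apart.

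**Figure D5:**
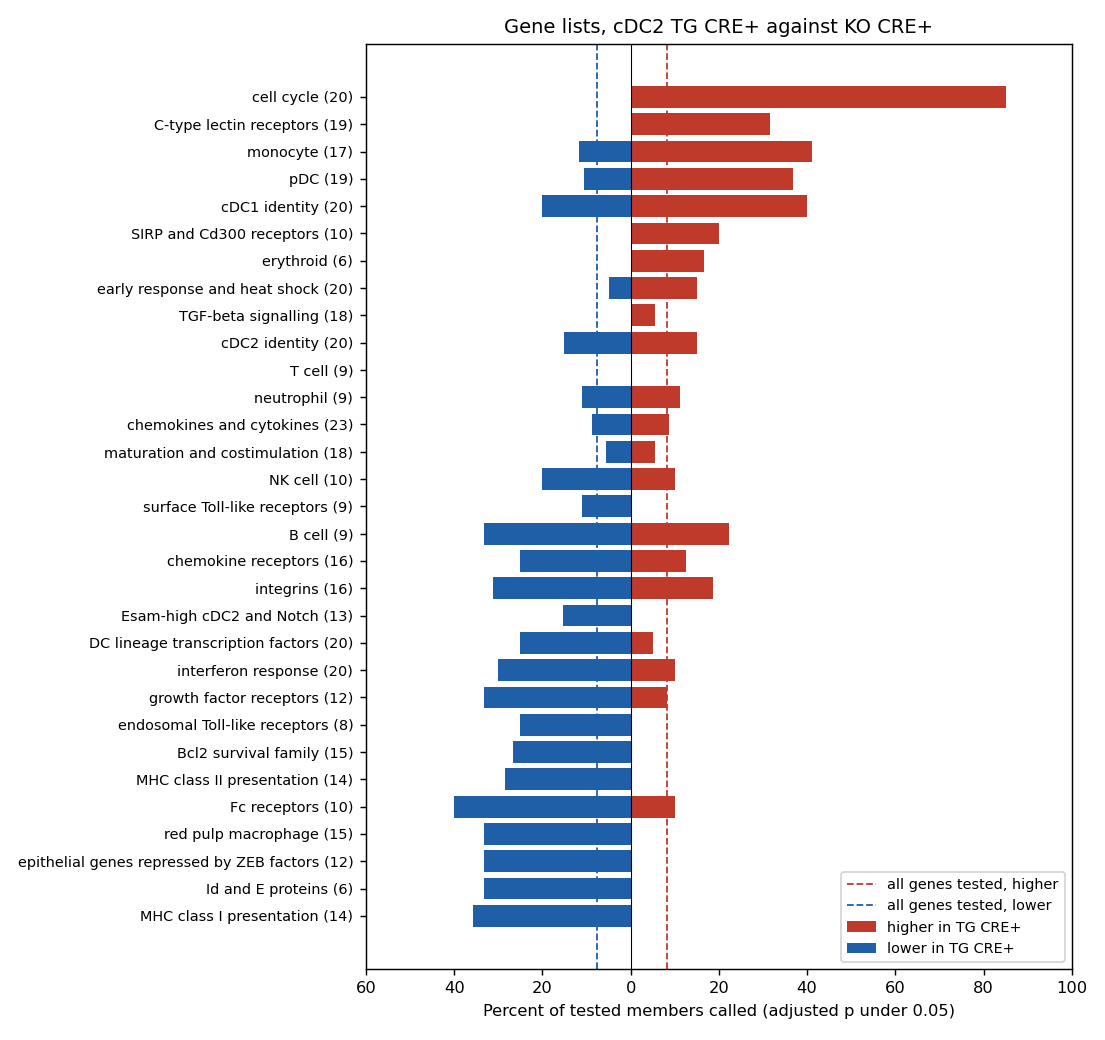
Percent of the tested members of 31 gene lists that were called higher (right, red) or lower (left, blue) in TG CRE+ than in KO CRE+, with the number tested in parentheses and dashed lines for all genes tested. Cell cycle genes reach 17 of 20 higher, and MHC class I and II genes have called members on the lower side only.

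Among Id and E proteins, 2 of 6 were lower in TG CRE+ and none was higher. Beside Id2, Id1 had 0, 0.15, 0.124 and 0 CPM in TG CRE+ and 0.194, 0.911, 0.658 and 0.735 CPM in KO CRE+ libraries, a scarce transcript whose call was lost with either pair of transgene libraries alone (adjusted p = 0.0669 and 0.066). Id3 and the E proteins Tcf3, Tcf4 and Tcf12 did not pass, with log2 fold changes of 0.70, 0.12, 0.41 and 0.22. Of 20 dendritic cell lineage transcription factors, 1 was higher and 5 were lower. Zeb1 had 26.1 to 32.8 CPM in TG CRE+ and 37.0 to 50.7 CPM in KO CRE+ (log2 fold change -0.57, adjusted p = 0.0112, and 0.0581 and 0.0802 with transgene replicates 1 and 2 or 3 and 4 alone). Irf4 had 155, 151, 208 and 219 CPM in TG CRE+ and 253, 515, 496 and 355 CPM in KO CRE+, a log2 fold change of -1.14 (adjusted p = 0.00778, and 0.137 with replicates 3 and 4 alone). Irf8 had 136, 182, 102 and 104 CPM in TG CRE+ and 67.0, 91.7, 69.2 and 75.5 CPM in KO CRE+, a log2 fold change of 0.79 (adjusted p = 0.000774, and 0.0506 with replicates 3 and 4 alone). Irf4 did not pass in the difference of contrasts (-0.57, adjusted p = 0.606), and Irf8 did (1.14, adjusted p = 0.0114). Batf3, which cDC1 need as well, Rbpj (the partner of Notch in the nucleus) and Cbfa2t3 were 1.37-fold, 1.23-fold and 1.39-fold lower.

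Of 20 cDC2 identity genes, 3 were higher, 3 lower and 14 did not pass. The called share was 30.0%, beside 15.8% of all genes tested, and the list's median log2 fold change was 0.06. Cx3cr1, the fractalkine receptor, had 95.2, 111, 89.1 and 85.6 CPM in TG CRE+ and 20.0, 15.9, 23 and 27.1 CPM in KO CRE+ (2.15, SE 0.23, adjusted p = 8e-07), with 72.7 to 110 CPM in the 4 Cre-negative libraries. Clec12a, an inhibitory lectin, was 1.53-fold higher, and Cd209a, the mouse DC-SIGN, 2.64-fold higher. Itgam, the Cd11b integrin chain that serves to sort cDC2, had 137, 139, 144 and 169 CPM in TG CRE+ and 299.5, 312, 306 and 308 CPM in KO CRE+ libraries. Its Cre-negative levels were 154 and 144 CPM in TG CRE- and 169 and 162 CPM in KO CRE-, close to the transgene group. On the log2 scale the change was -1.06 (SE 0.26, adjusted p = 0.00676, and 0.0923 with replicates 3 and 4 alone). Dtx1, a target of Notch, had 134 to 174 CPM in TG CRE+ and 522 to 645 CPM in KO CRE+. Among 13 genes of Notch signalling and of the Notch-dependent, Esam-high cDC2, Dtx1 and Rbpj were lower and 11 did not pass.

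Of 20 cDC1 identity genes, 8 were higher and 4 lower in TG CRE+. Clec9a, a receptor for dead cells, had 13.2, 15.4, 12.9 and 8.72 CPM in TG CRE+ and 2.95, 1.27, 3.21 and 3.33 CPM in KO CRE+ libraries, a log2 fold change of 2.22 (SE 0.22, adjusted p = 2.49e-07). Without Cre the order was the other way round, at 5.34 and 6.94 CPM in TG CRE- and 17.6 and 11.9 CPM in KO CRE-. That contrast did not pass (log2 fold change -1.26, adjusted p = 0.0733), and the difference of contrasts was 3.48 (adjusted p = 3.49e-06). Beside Cd8a, Cd36, Gcsam and Irf8, the list's higher genes were Cd24a, Cadm1 and Rab7b (2.31-fold, 1.49-fold and 2.23-fold). The lower ones were Hepacam2, Wdfy4, needed for cross-presentation, Tlr3 and Batf3 (3.14-fold, 1.62-fold, 1.77-fold and 1.37-fold). Without Cre, 6 genes of the list were at least 2-fold apart, and in the difference of contrasts 4 were higher and 1 lower. Gcsam and Cd36 are marked between the lines, Cd36 in the opposite direction, and neither Gcsam nor Cd8a passed in the difference. The summed CPM of the list was 1083 to 1325 in TG CRE+ and 1313 to 1613 in KO CRE+, and Xcr1 did not pass (1.21-fold, adjusted p = 0.235).

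Called antigen presentation genes were all lower in TG CRE+ than in KO CRE+. Of 14 MHC class II presentation genes, 4 were lower, none was higher and 10 did not pass, with a median log2 fold change of -0.18. H2-Ob and H2-Oa, the chains of the DO molecule that restrains peptide loading, differed most. H2-Ob had 280, 272, 298 and 276 CPM in TG CRE+ and 462, 421, 486 and 481 CPM in KO CRE+, with 316 to 419 CPM in Cre-negative libraries (-0.72, SE 0.07, adjusted p = 2.35e-07). H2-Oa was 1.5-fold lower. H2-Aa and H2-Ab1, the chains of the I-A molecule, were 1.15-fold and 1.17-fold lower, and each lost its call in 12 of 18 alternatives, so that 2 genes of the list were called when any transgene library, or deletion replicate 1, 3 or 4, was left out. Of 14 MHC class I genes, 5 were lower and none higher. The class I list summed to 11480 to 13340 CPM in TG CRE+ and 13790 to 15480 CPM in KO CRE+. Without Cre it summed to 12670 and 11850 CPM in TG CRE- and 11040 and 12320 CPM in KO CRE-, below every deletion library. Psmb9, Tap1, Tap2, B2m and Psmb8, which cut, transport and present peptides, were 1.4-fold, 1.43-fold, 1.47-fold, 1.28-fold and 1.2-fold lower. Without transgene replicate 2 there were 3 of them, and with replicates 3 and 4 alone 2.

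Of 20 interferon-responsive genes, 6 were lower, 2 higher and 12 did not pass, with a median log2 fold change of -0.39 (0.06 without Cre). Oasl2 had 35.6, 25.5, 33.4 and 30.2 CPM in TG CRE+ and 102, 94.5, 97.6 and 131 CPM in KO CRE+, with 34.6 to 47.8 CPM without Cre (-1.77, adjusted p = 3.72e-05). Ifit2, Usp18, Oas3 and Ifi44 were 1.39-fold to 2.06-fold lower. Ifih1, one of the higher genes, is marked as a line difference, at 48.9 to 65.6 CPM in TG CRE+ and 12.9 to 15.2 CPM in KO CRE+ and 56.5 and 51.5 CPM in TG CRE- and 13.8 and 19.1 CPM in KO CRE-. Mx1 was the other. With transgene replicates 1 and 2 alone 3 genes were lower.

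Toll-like receptor genes were called at 25.0% of the endosomal and 11.1% of the surface members tested, beside 15.8% of all genes. Of 8 genes of endosomal Toll-like receptors, Tlr3 and Tlr13, sensors of double-stranded and of bacterial ribosomal RNA, were 1.77-fold and 1.36-fold lower, none was higher and 6 did not pass. Tlr7 had 87.2 to 99.3 CPM in TG CRE+ and 142 to 155 CPM in KO CRE+ and did not pass (log2 fold change -0.69). Among 9 genes of surface Toll-like receptors, 8 did not pass, and Tlr4, the sensor of lipopolysaccharide, had 9.42, 13.8, 13.9 and 9.96 CPM in TG CRE+ and 29.1, 23.8, 26 and 33.4 CPM in KO CRE+ (-1.25, SE 0.17, adjusted p = 2.15e-05). All 4 Cre-negative libraries, at 11.7 to 16.4 CPM, were near the transgene group. C-type lectin receptors were called in the higher direction only, with 6 of 19 higher and 13 not passing. These were Clec9a, Clec12a, Cd209a, Cd209b, Clec1a and the podoplanin receptor Clec1b, the last 3 by 3.09-fold, 3.16-fold and 3.22-fold. None of the Clec4a genes passed, and reads of the Clec4a and Cd209 families may be split uncertainly between near-identical genes. Of 10 SIRP and Cd300 receptors, the activating receptor Cd300e (2.52-fold) and Cd300ld (1.95-fold) were higher.

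Of 10 Fc receptor genes, 4 were lower and 1 higher. Fcrla, an intracellular Fc receptor-like protein of B cells, had 1.66 to 3.40 CPM in TG CRE+ and 13.4 to 25.7 CPM in KO CRE+, with 0.859 to 4.90 CPM without Cre (-2.90, SE 0.28, adjusted p = 1.68e-07). Fcer2a (CD23), the recycling receptor Fcgrt and the inhibitory Fcgr2b were 4.85-fold, 1.45-fold and 1.35-fold lower, and Fcgr4 was 1.59-fold higher. Of 16 integrin genes, 5 were lower and 3 higher. Itgad, which lies beside Itgax and Itgam on chromosome 7, had 35.2, 36.8, 39.0 and 46.2 CPM in TG CRE+ and 53.3, 70.0, 72.2 and 70.8 CPM in KO CRE+ but 5.98 and 5.32 CPM in TG CRE- and 6.2 and 6.65 CPM in KO CRE-. Both Cre-positive groups were thus far above their littermates. Itgax, the gene whose promoter drives Cre, was 1.17-fold lower, at 1058 to 1114 CPM in TG CRE+ and 1184 to 1464 CPM in KO CRE+, and lost its call in 10 of 18 alternatives. Itgal and Itgb5 were also lower, and Itgb1, Itgb3 and Itga6 higher.

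Of 16 chemokine receptor genes, 2 were higher, 4 lower and 10 did not pass. Cxcr3, a receptor for interferon-induced chemokines, had 1.85, 4.44, 2.65 and 2.64 CPM in TG CRE+ and 24.8, 18.9, 19.6 and 24.6 CPM in KO CRE+ libraries, and 3.02 to 5.07 CPM without Cre (-2.92, SE 0.17, adjusted p = 8.12e-11). Ccr2, which guides monocytes and some dendritic cells out of the bone marrow, had 149, 179, 132 and 130 CPM in TG CRE+ and 41.9, 26.9, 58.0 and 42.4 CPM in KO CRE+ (1.80, SE 0.35, adjusted p = 0.0009). Without Cre it held 122 to 156 CPM. Gpr183, which places cDC2 at the bridging channels of the spleen, Ccr6 and Ccr3 were 1.86-fold, 1.77-fold and 3.47-fold lower, and Ccr7 did not pass.

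Among 23 chemokines and cytokines, 2 were higher and 2 lower. Il6 had 8.36, 8.20, 17.4 and 18.4 CPM in TG CRE+ and 0.659, 2.93, 2.63 and 2.21 CPM in KO CRE+ (2.63, SE 0.45, adjusted p = 0.000246). Il12b, the p40 chain of interleukins 12 and 23, was 3.03-fold higher (adjusted p = 0.00654, and 0.064 with replicates 1 and 2 alone), and Ebi3 and Il23a were lower. Of 18 maturation and costimulation genes, Cd86 was 1.43-fold lower, Pdcd1lg2 (PD-L2) 2.01-fold higher, and 16 did not pass.

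Of 12 growth factor receptor genes, 4 were lower, 1 was higher and 7 did not pass. Flt3, the receptor that drives dendritic cell development, had 381, 374, 352 and 309 CPM in TG CRE+ and 508, 602, 562 and 508 CPM in KO CRE+ libraries (-0.62, SE 0.08, adjusted p = 1.33e-05), and 356 to 468 CPM without Cre. Kit, the stem cell factor receptor, had 567 to 670 CPM in TG CRE+ and 956 to 1136 CPM in KO CRE+ (-0.72, adjusted p = 0.000113). Csf1r, the macrophage growth factor receptor, had 777, 797, 749 and 762 CPM in TG CRE+ and 418, 528, 450 and 464 CPM in KO CRE+ (0.73, adjusted p = 0.000334). Csf2rb2 and Csf3r were also lower. Without KO CRE+ replicate 2, 2 genes of the list were lower. Of 15 genes of the Bcl2 survival family, 4 were lower and none higher. The survival genes Bcl2a1a, Mcl1 and Bcl2l1 were 1.59-fold, 1.28-fold and 1.53-fold lower, and Bcl2l11 (Bim), which promotes death, 1.6-fold. Reads of Bcl2a1a, Bcl2a1b and Bcl2a1d may be split uncertainly, and 1 of the 4 calls was left with transgene replicates 3 and 4 alone.

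Cell cycle genes were higher in TG CRE+ than in KO CRE+ almost throughout. Of 20, 17 were higher, none was lower and Mki67, Mcm2 and Mcm6 did not pass. The median log2 fold change was 0.82, against -0.21 between the lines without Cre. Ccna2, a cyclin of DNA replication and mitosis, had 80.7, 58.2, 68.3 and 58.2 CPM in TG CRE+ and 31.2, 25.3, 35.3 and 29.4 CPM in KO CRE+ libraries (1.13, SE 0.17, adjusted p = 8.67e-05). Cre-negative cells held 61.5 and 59.8 CPM in TG CRE- and 61.9 and 71.4 CPM in KO CRE-, so the deletion group stood below the other 3. Against its own littermates Ccna2 had a log2 fold change of 0.13 with the transgene (adjusted p = 0.938) and fell by 1.14 with the deletion (adjusted p = 0.00137). The mitotic kinase Aurka (1.78-fold), the survivin gene Birc5 (2.14-fold), Aurkb (1.96-fold), Rrm2 (1.92-fold), Bub1 (2.12-fold) and Ccnb1 (1.96-fold) followed the same direction. The summed CPM of the list was 1190 to 1392 in TG CRE+ and 752 to 996 in KO CRE+. Leaving out each library in turn gave 14 to 18 higher genes, and the pairs of transgene libraries alone gave 14 and 12.

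Markers of other spleen cells were read as well, and their part in the results was not tested. Of 17 monocyte genes, 7 were higher and 2 lower. Lyz1 had 163 to 212 CPM in TG CRE+ and 52.7 to 79.4 CPM in KO CRE+ but 269 and 155 CPM in TG CRE- and 420 and 395 CPM in KO CRE-. Lyz2, Csf1r, Ccr2, Cx3cr1, Cd300e and Ly6c2 were higher too, and Plac8 was 1.58-fold lower. The list's summed CPM overlapped, at 6158 to 8756 in TG CRE+ and 6504 to 9009 in KO CRE+. Ly6c2, which defines classical monocytes, ran at 19.3, 41.6, 9.83 and 2.19 CPM in TG CRE+ and 0.697 to 4.51 CPM in KO CRE+, in the same library order as Siglech. Of 15 red pulp macrophage genes, none was higher and 5 were lower. These were Slc40a1, Mertk, C1qa, C1qb and C1qc. C1qc had 16.6 to 17.7 CPM in TG CRE+ and 24.3, 32.4, 66.4 and 51.8 CPM in KO CRE+, and the list summed to 606 to 724 CPM in TG CRE+ and 542 to 1008 CPM in KO CRE+. The macrophage factor Spic (14.1 to 21.0 CPM in TG CRE+, 15.9 to 27.7 CPM in KO CRE+) and Vcam1 did not pass, and the pairs of transgene libraries alone gave 2 and 1 lower genes.

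Of 19 pDC genes, 7 were higher and 2 lower. Beside Siglech and Cd209d, the higher ones were Bst2, Klk1, Ptprs, Ly6d and Dntt, of which Dntt had no count in KO CRE+. The lower ones were Fcrla, given above, and Atp1b1 (2.43-fold). Siglech, Cd209d, Klk1, Ly6d and Dntt had log2 fold changes of 1.28, 2.24, 3.33, 1.36 and 3.07 between the lines without Cre. None of them passed there or in the difference of contrasts. Of the called members, Ptprs passed in that difference in the higher direction and Fcrla in the lower. The factors Tcf4 and Spib did not pass, and the list summed to 593 to 818 CPM in TG CRE+ and 686 to 761 CPM in KO CRE+. Of 9 B cell genes, Cd22 and Cd79b were 2-fold and 1.58-fold higher and Ms4a1, Fcer2a and Blk lower. The list summed to 183 to 295 CPM in TG CRE+ and 302 to 392 CPM in KO CRE+, sums that include the Ms4a1 levels given above. Pax5 had 2 counts in TG CRE+ and 6 in KO CRE+. No T cell gene of 9 passed, with sums of 11.8 to 34.4 CPM in TG CRE+ and 6.86 to 13.3 CPM in KO CRE+. Of 10 natural killer cell genes, 1 was higher and 2 lower. Klrd1, which dendritic cells also express, had 16.1, 15.0, 70.0 and 15.9 CPM in TG CRE+ and 158 to 229 CPM in KO CRE+ libraries, with 27.7 and 22.7 CPM in TG CRE- and 96.3 and 130 CPM in KO CRE-. Ncr1 had no count in KO CRE+ and 95 in TG CRE+, at least 7.84-fold higher. Between the lines without Cre its log2 fold change was 6.99 in edgeR's test, without passing (adjusted p = 0.384). In the difference of contrasts it was 0.58 and did not pass. The list summed to 106 to 168 CPM in TG CRE+ and 303 to 357 CPM in KO CRE+, where Klrd1 alone made up 158 to 229 CPM. Of 9 neutrophil genes, Mmp9 was higher and Csf3r lower. Elane and Mpo had at most 1 count in a library, and the list's sum of 163 to 359 CPM in TG CRE+ and 42.4 to 78.4 CPM in KO CRE+ was mostly Mmp9 in the transgene group. Of 6 erythroid genes, the transferrin receptor Tfrc alone passed (2.32-fold higher), and the globins Hba-a1, Hba-a2 and Hbb-bt had no count, with sums of 54.3 to 98.5 CPM in TG CRE+ and 32.2 to 37.5 CPM in KO CRE+.

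Early response and heat shock genes, which can rise during tissue digestion, held 3 higher and 1 lower members of 20. Hsph1 had 111, 92.6, 44.2 and 50.8 CPM in TG CRE+ and 21.9, 23.6, 23.7 and 37.9 CPM in KO CRE+, and 19.2 to 32.7 CPM without Cre (1.48, adjusted p = 0.000481). Its TG CRE+ libraries split into the same pairs as for Elavl4, with replicates 1 and 2 high, and with replicates 3 and 4 alone the adjusted p was 0.053. Hspa8 and Hsp90aa1 were 1.77-fold and 1.46-fold higher. Egr1 had 1166, 1361, 2588 and 2112 CPM in TG CRE+ and 2947 to 3592 CPM in KO CRE+ (-0.84, adjusted p = 0.00906, and 0.218 with replicates 3 and 4 alone). Fos, Jun and the other 14 genes did not pass.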

How the data were processed

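RNA of sorted splenic cDC1 and cDC2 (4 ng per sample, SMART-Seq v4, per the labels) was sequenced, and 24 libraries were deposited as whole-number read counts per gene symbol. Per the submitters' processing notes the tools were FastQC 0.11.4, Trimmomatic 0.35, TopHat2 2.1.0 and SAMtools 0.1.18 with the genome mm10. The counter, its annotation and whether it used strand were not given in the sources used here, so reads of overlapping genes on opposite strands and of near-identical copies may be assigned uncertainly. The 5 lines for reads outside genes were dropped before scaling, which left 24421 symbols. No depth normalization had been applied to the deposited counts.

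The counts were fitted with edgeR 4.0.16 (R 4.3.3) over 24 libraries and 8 group means, after edgeR's expression filter (minimum count 10, minimum total 15; 13166 genes) and TMM scaling, and tested by quasi-likelihood with Benjamini-Hochberg adjustment over all genes tested at 0.05. Normalization factors of the 24 libraries were 0.9245 to 1.074. The same steps were also run on simulated counts. There the libraries of a group varied independently, so the pairing of TG CRE+ libraries was not covered. Contrasts were TG CRE+ over KO CRE+, TG CRE- over KO CRE- and their difference. Genes were positioned by RefSeq (12559 by symbol, 571 by synonym, 36 not matched). Alternatives were DESeq2 1.42.0, its size factors, other count filters, fewer libraries, the replicate number as a block and leaving out each library. Single pairs of transgene libraries were added after the data had been seen.

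Named genes are Zeb2, Id2, Zeb1 and Itgax; the 10 highest and 10 lowest fold changes among called, non-overlapping genes with a group mean of at least 5 CPM that were not called without Cre; the 4 in each direction among those called without Cre; the 4 in each direction with the smallest p in the difference; up to 3 called members per list; and the markers. Further members were named after their values were seen. Some members that enter the list counts are not reported here by name. The comparison, the members and the lists were chosen with earlier results of these data known. Depth gives counting precision only, and intervals and floors (3 counts) cover counting error only.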

Additional observations from a re-analysis of the deposited data

Results flagged for a closer look

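Among 216 groups of 4 libraries, 14 held a library that stood apart by its gap to the next one as a share of the group's range, where chance gives about 1 in 20. In TG CRE+ this share was 1.0 for 1700011B04Rik (replicate 3) and Tnfrsf11b (replicate 2), which have counts in that library alone. It was 0.869 for Upp1 (replicate 2), 0.88 for Ms4a1 (replicate 4), 0.981 for Klrd1 (replicate 3), 0.915 for Bcl2a1a (replicate 1), 0.907 for Gt(ROSA)26Sor (replicate 4) and 0.843 for Zbtb46 (replicate 4). The value of Gt(ROSA)26Sor rests on 3 counts in all TG CRE+ libraries together, so it does not set replicate 4 apart. In KO CRE+ it was 0.914 for Tnfrsf11b (replicate 3), 0.837 for Tfrc (replicate 2), 0.885 for Itgad (replicate 1), 0.832 for Tap1 (replicate 2), 0.887 for Hsph1 (replicate 4) and 0.928 for Wdfy1 (replicate 4).

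For 54 of 108 named genes, beside 585 of 13166 genes tested (4.44%), the effect of line differed between Cre-positive and Cre-negative cDC2 in edgeR's test of the difference, given here as log2 values of the Cre-positive minus the Cre-negative fold change. Many of the named genes were chosen by the Cre-positive contrast or by this difference, so nothing is read from their number. The first group is of regulators and receptors of development, with 2.67 for Zeb2, -1.36 for Id2, 1.14 for Irf8, -0.76 for Flt3, -1.01 for Kit and 1.31 for Csf1r.

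Among the genes highest in TG CRE+ the difference was 5.91 for Gp2, 3.61 for Mmp9, 5.13 for Adamdec1, 3.8 for Hr and 3.08 for 2610528A11Rik. Among the lowest it was -9.2 for 1700011B04Rik, -7.6 for Cdh17, -6.98 for Lurap1, -5.88 for Slc27a2, -6.07 for Upp1, -6.66 for Prg2, -5.18 for Ms4a1, -4.33 for Serpinb2 and -5.02 for Ttc39a. It was -3.49 for Lsr, -4.19 for Snx22 and -1.46 for Anxa6.

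Identity, monocyte and lectin genes gave 2.45 for Cx3cr1, 1.13 for Clec12a, 3.48 for Clec9a, 2.63 for Cd36, 2.43 for Lyz1, 1.65 for Lyz2, 3.27 for Clec1b and 2.05 for Cd300e. Sensors, Fc receptors and signalling genes gave -1.19 for Tlr3, -0.73 for Tlr13, -1.45 for Tlr4, -4.38 for Fcrla, -3.06 for Fcer2a, -2.82 for Blk, -3.16 for Cxcr3, 3.38 for Il6 and -1.27 for Ppm1m. Presentation, interferon and survival genes gave -0.96 for H2-Ob, -0.65 for H2-Oa, -0.52 for Psmb9, -0.55 for Tap1, -1.55 for Oasl2, -0.63 for Bcl2a1a and -0.52 for Mcl1. Epithelial genes gave -2.71 for Cldn1, -2.45 for Epcam and -7.0 for Crb3. The last is a fitted value of a gene with no count in TG CRE+ and is no measure of size, and that of 1700011B04Rik rests on 3 counts there. Cell cycle and iron uptake genes gave 1.08 for Aurka, 1.27 for Ccna2, 1.29 for Birc5 and 1.36 for Tfrc.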

How the results depend on the processing

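The Cre-positive counts of 1080 higher and 1005 lower genes stayed within 1.5 times under the other scaling, filters, library sets and DESeq2, and leaving out each library gave 764 to 964 and 706 to 877. At least 2-fold apart were 242 and 353, and transgene replicates 3 and 4 alone gave 507 and 488. Without Cre, DESeq2 called 38 higher and 32 lower genes, no filter gave 15 lower, the filter of 5 CPM 11 lower, and leaving out each library gave 5 to 8 higher and 4 to 5 lower, where the lone library of a group is assumed to vary like the rest. In the difference of contrasts, 149 and 170 genes were at least 2-fold apart, DESeq2 called 469 higher, transgene replicates 1 and 2 or 3 and 4 alone gave 194 and 198 higher, and leaving out each library gave 104 to 316 higher and 127 to 283 lower. Leaving out each library gave 14 to 18 higher cell cycle genes, 5 to 6 C-type lectins and 7 to 8 monocyte genes. It gave 2 to 4 lower MHC class II genes, 3 to 5 MHC class I, 4 to 6 interferon, 3 to 4 Bcl2, 2 to 4 growth factor receptor, 4 to 6 macrophage and 4 epithelial genes. Transgene replicates 1 and 2 alone gave 2 lower MHC class II, 3 interferon and 2 macrophage genes, and replicates 3 and 4 alone gave 2 MHC class II, 2 MHC class I, 1 Bcl2 and 1 macrophage gene. The motif CANNTG was in 69.5% of lower, 62.9% of higher, 74.2 and 70.5% of at least 2-fold lower and higher, and 63.6% of all promoters. Log2 fold changes near 0 turned sign for Sirpa (-0.0118 to 0.0881 leaving out each library, below 0 without TG CRE+ replicate 4 or KO CRE+ replicate 3) and Clec4a4 (-0.0638 to 0.0445, above 0 without KO CRE+ replicate 4), and neither was called. The cause of these changes was not tested. Of 102 called named genes, 15 lost the call with transgene replicates 1 and 2 alone and 23 with replicates 3 and 4 alone. Zeb1, Itgax, Id1, C1qc, Klrk1, Csf3r, H2-Aa and H2-Ab1 lost it with either pair. Elavl4, Batf3, Tlr13, Cd300ld, Il12b, Ifit2 and Smad1 lost it with replicates 1 and 2 alone. Irf8, Irf4, Rbpj, Mertk, Blk, Itgad, Ebi3, Pdcd1lg2, Tap2, Mcl1, Bcl2l11, Hsph1, Hsp90aa1, Egr1 and Itgam lost it with replicates 3 and 4 alone. Fewer libraries enter these fits. Genes with few counts in a group, such as Id1 and Il23a, are limited by depth.

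The replicate numbers did not pair the libraries. Deviations of same-numbered TG CRE+ and KO CRE+ libraries correlated at -0.1799 to 0.0951 and others at -0.148 to 0.1298, and 0 of 4 transgene libraries correlated best with their own number. TG CRE+ replicates 1 and 2 correlated at 0.0951 to 0.1298 with KO CRE+ replicates 1 and 4. With KO CRE+ replicates 2 and 3 they correlated at -0.1799 to -0.0565. TG CRE+ replicates 3 and 4 did the reverse, at 0.0671 to 0.128 with KO CRE+ replicates 2 and 3. With KO CRE+ replicates 1 and 4 they stood at -0.132 to -0.0837. Both groups thus hold a like split that the numbers do not follow, and its source was not tested. With the replicate block, 1080 genes were higher and 1005 lower (1967 of 2085 shared), 14 and 18 without Cre, and 298 and 284 in the difference. With the 8 compared libraries and the block they were 847 and 962.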
